A study of Mus musculus with 8 samples.

Results

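Mitochondrial ribosomal protein genes, written Mrpl and Mrps, were followed through 8 single-cell libraries of mouse bone marrow progenitors. Members were all gene names made of Mrpl or Mrps, a number and at most one further letter. This rule gave 76 of 19879 gene names, 47 of them Mrpl and 29 Mrps, and it used no measured value. The GENCODE annotation holds 2 further names under the rule, Mrpl53 and Mrpl58, which were not analysed here under those names.

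Cells were sorted from bone marrow of wild type mice and of Mof -/+ mice, which have 1 functional copy of Mof (Kat8), a histone acetyltransferase gene. RNA was counted with CEL-Seq2, which tags each captured transcript near its 3′ end with a molecular identifier. There were 4 groups of 2 libraries each: wild type HSC, Mof -/+ HSC, wild type plate2 and Mof -/+ plate2. The design text gives a gate for haematopoietic stem cells (HSC) and gates for erythroid, granulocyte-monocyte and megakaryocyte progenitors, but the labels do not say which gate filled a plate2 well. No label gives the mice's age, sex or strain or another treatment, and none says that the libraries of a group came from separate mice. The p-values below therefore rest on the spread between libraries, and part or all of that spread may be technical.

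Mitochondria keep a ribosome of their own that makes the few respiratory chain proteins encoded in mitochondrial DNA. All of its proteins are encoded in the nucleus, made in the cytosol and imported, while its RNAs are transcribed in the mitochondrion. Some of these proteins descend from bacterial ribosomal proteins and others were added in the mitochondrial lineage. Red cell precursors depend on mitochondria for haem synthesis, and blood stem cells are known for low mitochondrial respiration.

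A barcode was kept as a well with at least 1000 transcripts, which left 436 wells, from 45 to 68 in each library. Kept transcripts ran from 99312 to 244299 in the HSC libraries and from 424794 to 734550 in the plate2 libraries, so the HSC values carry the larger counting error. Levels are given as CPM, the transcripts of a gene or list in each 1000000 kept transcripts of a library. Stem cell markers made up 2875 to 4128 CPM in HSC and 615 to 1211 CPM in plate2 libraries, with 9 or more of the list's 10 genes detected in each library. Early erythroid markers stood at 1049 to 2762 CPM in HSC and 3687 to 4553 CPM in plate2 libraries. All 8 mature neutrophil markers, which no gate named in the design targets, were detected in wild type HSC library 1 (5249 CPM), and none of them in wild type HSC library 2. Between the libraries of a group, 0 to 9 kept barcodes were shared. All comparisons of plate2 with HSC libraries hold the sort, the depth and any preparation difference at once, and these cannot be told apart.

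The start regions of 4 members are shown first, since these genes moved in the comparisons below. Mrpl52 and Mrpl20 were higher and Mrps27 and Mrpl45 lower in some plate2 libraries. Each run is the 160 bases just before the RefSeq start on GRCm38.p6, all on the plus strand: Mrpl52 at chr14:54426749-54426908, Mrps27 at chr13:99344626-99344785, Mrpl45 at chr11:97315556-97315715 and Mrpl20 at chr4:155802718-155802877. Capitals mark the core letters bound by ETS factors, CCGGAAG, or their reverse complement.
Mrpl52: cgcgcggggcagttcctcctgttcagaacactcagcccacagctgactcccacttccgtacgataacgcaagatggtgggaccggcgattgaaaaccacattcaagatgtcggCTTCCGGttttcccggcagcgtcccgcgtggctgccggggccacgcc
Mrps27: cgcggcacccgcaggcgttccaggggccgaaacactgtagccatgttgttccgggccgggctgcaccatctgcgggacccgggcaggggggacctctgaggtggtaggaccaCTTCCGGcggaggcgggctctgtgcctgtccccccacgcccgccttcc
Mrpl45: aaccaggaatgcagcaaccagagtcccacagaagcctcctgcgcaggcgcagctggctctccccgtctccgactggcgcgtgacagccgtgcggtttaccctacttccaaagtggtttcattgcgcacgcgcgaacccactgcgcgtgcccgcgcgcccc
Mrpl20: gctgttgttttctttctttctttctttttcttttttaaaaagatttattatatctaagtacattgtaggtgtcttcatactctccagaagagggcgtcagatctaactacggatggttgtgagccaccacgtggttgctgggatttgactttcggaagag
The ETS letters begin at position -47 from the start of Mrpl52, a member that was higher in plate2 libraries, and at position -48 from that of Mrps27, a member that was lower. Neither window of Mrpl45 nor of Mrpl20 holds them. The 4 windows were picked from a longer list of members that passed, so they cannot relate these letters to a direction.

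RefSeq promoter windows, from 250 bases before to 50 after a start, matched 67 of the 76 members. The ETS letters stood on either strand in 24 of the 67 (35.8%), against 9.93% of the 27025 genes in the table. The 8-letter motif of YY1 stood in 12 members (17.9%), against 3.19% of all genes, and the 10-letter motif of NRF1, a regulator of nuclear genes for mitochondria, in 3 (4.48%), against 1.07%. One motif or more stood in 35 members (52.2%), against 13.4% of all genes. The reference was not limited to the 19879 gene names of this series or to genes detected in it. These shares therefore do not set members apart from other genes expressed in these cells. A match describes letters and shows no binding.

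Mrp transcripts numbered 12406 of the 3116334 kept transcripts. Their summed level was 3424 and 3930 CPM in the wild type HSC libraries, 3845 and 3038 CPM in the Mof -/+ HSC libraries, 3677 and 3108 CPM in the wild type plate2 libraries, and 4424 and 4861 CPM in the Mof -/+ plate2 libraries. Both Mof -/+ plate2 libraries thus lay above the other 6, whose groups overlapped. With wells of at least 2000 transcripts this order did not hold: wild type HSC library 2, then of 14 wells, stood at 4479 CPM and Mof -/+ plate2 library 1 at 4461 CPM. Without the erythroid-marked wells described below, the Mof -/+ plate2 libraries (3608 and 3960 CPM) lay above the other 6 (2266 to 3279 CPM). A CEL-Seq2 level counts 3′ tags without scaling by length, so the order of the genes below is one of captured tags.

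**Figure D1:**
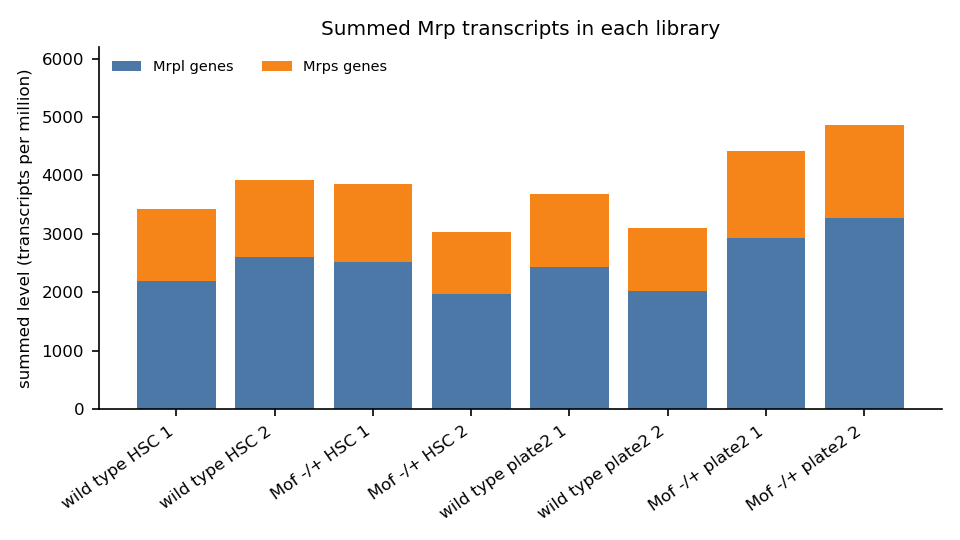
Summed level of the Mrpl and Mrps genes in each library, in CPM, with library numbers after the group. Bars start at 0; the sums run from 3038 CPM in Mof -/+ HSC library 2 to 4861 CPM in Mof -/+ plate2 library 2.

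The balance between the name classes varied little. The Mrpl sum was 1.76 to 2.04 times the Mrps sum over the 8 libraries, and HSC (1.76 to 1.96) and plate2 values (1.85 to 2.04) overlapped. The class names follow history and not always place: Mrps18a and Mrps30 encode proteins found in the large subunit. Members without a bacterial relative, 30 of the 76, made up 44.4% and 42.2% of Mrp transcripts in wild type HSC, 37.9% and 41.4% in Mof -/+ HSC, 34.5% and 34.9% in wild type plate2 and 34.8% and 35.4% in Mof -/+ plate2 libraries. The 4 HSC values all lay above the 4 plate2 values, and no test was made of this share.

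Wells gave few Mrp transcripts each, with a library median of 4 to 9 in HSC and 19 to 52.5 in plate2 wells. The median share of a well's transcripts was 0.282% and 0.318% in wild type HSC, 0.312% and 0.302% in Mof -/+ HSC, 0.341% and 0.268% in wild type plate2, and 0.371% and 0.421% in Mof -/+ plate2 libraries. With each well thinned to 1000 transcripts, the median was 3 in 7 libraries and 2 in wild type plate2 library 2, so that at 1000 transcripts a well resolves little.

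Mrpl18, a large subunit protein that also helps import 5S rRNA, was the highest member with 447 transcripts over all libraries. It lies at chr17:12911349-12916345 on the minus strand of GRCm38. Its level was 151.1 and 145.6 CPM in wild type HSC, 126.96 and 69.6 CPM in Mof -/+ HSC, 133.5 and 143.7 CPM in wild type plate2 and 153.95 and 171.1 CPM in Mof -/+ plate2 libraries. Mof -/+ HSC library 2 was the low one, and the plate sets overlapped.

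Mrps21, a small subunit protein, followed with a mean of 101.8 CPM over the 8 libraries and a range from 59.7 to 184.4 CPM. Mrpl52 came next (38.8 to 160.8 CPM), then Mrpl36 (54.7 to 184.4 CPM), Mrpl23 (58.9 to 164.97 CPM), Mrps36 (54.7 to 161.2 CPM), Mrpl34 (34.8 to 163.8 CPM) and Mrpl19 (48.5 to 163.4 CPM). These ranges overlap throughout, so the order among these genes is not resolved. Mrps36, named for the small subunit, is now known as a part of the oxoglutarate dehydrogenase complex of the citric acid cycle.

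At the other end, Mrps18b gave 8 transcripts in 7 wells over the whole series. It was 0 in all 4 HSC libraries and 2.72, 0, 7.93 and 1.47 CPM in plate2 libraries. Its paralogs Mrps18a and Mrps18c, which encode related S18 proteins, were detected in 49 and 61 wells. Mrps18b overlaps the antisense model Gm16279 at its 3′ end. Strand use in the counting is not given in the sources used here, so its reads cannot be told from those of that model.

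Every member was detected in at least 1 kept well. Of the 76, 68 passed the filter on low counts for comparisons of libraries, and 8 were not tested: Mrpl49, Mrps6, Mrpl55, Mrps31, Mrpl4, Mrps11, Mrps18a and Mrps18b. Exons of 31 members share bases with another annotated gene, among them Mrpl46 and Mrps11, which overlap each other head to head on chromosome 7.

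The first comparison asks what 1 missing copy of Mof changes in HSC libraries. No member passed (edgeR quasi-likelihood test, adjusted p under 0.05 over all genes tested), and of all 6690 genes 0.0149% passed. At an unadjusted p under 0.05, 3 members were higher and 2 lower in edgeR, and 2 higher and 2 lower in DESeq2, which called 0 at an adjusted p under 0.05. The fitted log2 fold difference was above 0 for 32 of the 68 members, with a median of -0.06, against 0.03 over all genes. With members at 0 in wild type set to a bound of 3 counts over the group, the median was -0.08, and with scaling by library size alone it was 0.03.

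Mrpl45, which docks the mitochondrial ribosome to the inner membrane, had the smallest p on the lower side. Its level was 191.4 and 155.3 CPM in wild type HSC libraries and 65.5 and 54.7 CPM in Mof -/+ HSC libraries, from 7, 6, 9 and 7 wells. The groups did not overlap, with a log2 fold difference of -1.58 ± 0.42 (SE), but the adjusted p in edgeR was 0.208. Mrpl41 and Mrps25 were next on the lower side, with adjusted p of 0.391 and 0.467 in edgeR.

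On the higher side Mrpl3, a large subunit protein, gave 0 transcripts in the kept wells of both wild type HSC libraries. It stood at 32.8 and 19.9 CPM in the Mof -/+ ones, at least 1.82-fold higher (adjusted p in edgeR 0.334). Mrpl24 likewise gave 0 in both wild type libraries and 28.7 and 24.9 CPM in Mof -/+ HSC libraries, at least 1.82-fold higher (adjusted p in edgeR 0.340). Mrpl39 was 0 and 0 against 8.19 and 29.8 CPM, at least 1.21-fold higher (adjusted p in edgeR 0.447). With 3 counts as the floor, these differences are close to what the wild type depth can show.

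Both Mof -/+ libraries lay above both wild type libraries for 9 of the 68 members (13.2%) and below them for 8 (11.8%). Over all genes tested these shares were 23.1% and 14.1%. Mature neutrophil markers, at 5249 and 0 CPM in wild type and 1079 and 2067 CPM in Mof -/+ HSC libraries, varied within the groups, and their part in these values was not tested.

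In plate2 libraries most members had a higher fitted level in Mof -/+ than in wild type, each by a small amount. The fitted difference was above 0 for 59 of the 68 members (86.8%), against 49.5% of all genes, and the median log2 fold difference was 0.34, against -0.00 over all genes. Scaling by library size alone raised the median of all genes by 0.13 and gave members 0.47. No member passed by itself, where 0.553% of all genes did, and 2 members were higher and none lower at an unadjusted p under 0.05 in edgeR. DESeq2 called 0 members at an adjusted and 0 at an unadjusted p under 0.05. The summed Mrp level was 1.37 times the wild type level (geometric means of 2 libraries).

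**Figure D2:**
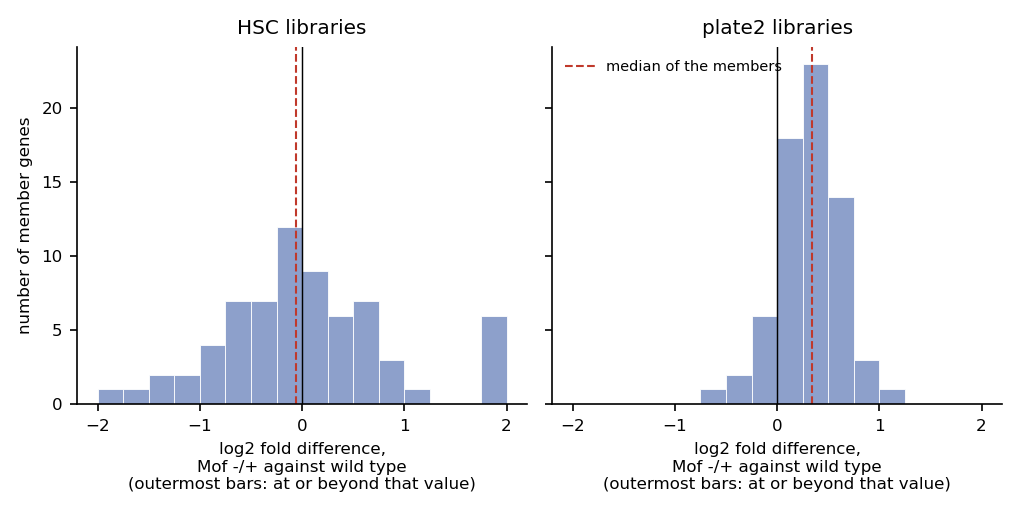
Number of member genes (vertical axis) by their fitted log2 fold difference between Mof -/+ and wild type (horizontal axis) in HSC libraries on the left and plate2 libraries on the right, 68 members in each. The dashed line is the members' median, -0.06 and 0.34, and outermost bars hold values at or beyond 2.

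Both Mof -/+ plate2 libraries lay above both wild type ones for 44 of the 68 members (64.7%), where 30.6% of all genes did so, and below them for Mrps25 alone (13.2% of all genes). Mrps33, a small subunit protein without a bacterial relative, had the smallest p. It stood at 43.6 and 35.3 CPM in wild type and 77.7 and 78.1 CPM in Mof -/+ plate2 libraries, a log2 fold difference of 0.82 ± 0.33 (SE), with an adjusted p in edgeR of 0.811. Mrpl46, of the large subunit, stood at 19.1 and 21.2 CPM against 46 and 44.2 CPM (log2 fold difference 1.03 ± 0.43, adjusted p in edgeR 0.824). Mrpl11, at the base of the factor-binding stalk, had an adjusted p of 0.973 in edgeR. Mrpl1, Mrps22 and Mrps25 had the smallest p on the lower side, each with an adjusted p of 0.997 in edgeR.

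The small upward shift was seen under both name classes. It was above 0 for 41 of 44 Mrpl members (median 0.36) and 18 of 24 Mrps members (median 0.27). Cytosolic ribosomal protein genes did alike, with 72 of 73 above 0 and a median of 0.37, and so did nuclear genes of the respiratory chain, with 73 of 76 above 0 and a median of 0.35. The 13 protein genes of mitochondrial DNA, whose transcripts the mitochondrial ribosome reads, had 2 members above 0 and a median of -0.23. None of the genes of these 3 lists passed.

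Other values moved with genotype in these libraries. Mature neutrophil markers stood at 2593 and 1979 CPM in wild type and 297 and 17.7 CPM in Mof -/+ plate2 libraries, and 6 of the 8 tested markers fell. Granulocyte-monocyte progenitor markers stood at 2032 and 134.2 CPM in wild type and 3842 and 2190 CPM in Mof -/+ libraries. Stem cell markers stood at 777.9 and 1211 CPM in wild type and 730 and 615 CPM in Mof -/+ libraries, with 1 of 9 tested markers above 0, a median log2 fold difference of -0.84 and none that passed. Megakaryocyte markers lay higher in both Mof -/+ libraries (154.4 and 175.7 CPM) than in both wild type ones, and Pf4, a platelet chemokine, rose (2.58 ± 0.53, adjusted p in edgeR 0.0230). The part of these lists in the Mrp values was not tested. The erythroid-marked wells described below held 29.4% and 27.5% of transcripts in wild type and 50.1% and 38.7% in Mof -/+ plate2 libraries. Without wells of 10 or more mature neutrophil transcripts, 59 of 68 members were above 0 with a median of 0.32. Without erythroid-marked wells, 40 of 52 were above 0 with a median of 0.26, and the sums were 3279 and 2266 CPM against 3608 and 3960 CPM. Leaving out Mof -/+ plate2 library 2 gave 45 of 62 above 0 and a median of 0.24, and leaving out wild type plate2 library 2 gave 49 of 65 and a median of 0.19. Leaving out wild type plate2 library 1 gave 58 of 65 and a median of 0.53.

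Over both plate sets, with plate set as a term, no member passed in edgeR or DESeq2 (0.135% of all genes passed in edgeR), and Mrpl27 alone had an unadjusted p under 0.05. The difference was above 0 for 49 members, with a median of 0.25, against -0.01 over all genes. Scaling by library size alone raised the median of all genes by 0.115 and gave members 0.37. Mrpl27 stood at 0 and 9.70 CPM in wild type and 20.5 and 44.8 CPM in Mof -/+ HSC libraries, and at 20.4 and 37.7 CPM in wild type and 42.8 and 54.6 CPM in Mof -/+ plate2 libraries. Its log2 fold difference was 0.90 ± 0.43 (SE), with an adjusted p in edgeR of 0.826. Mrpl21 and Mrpl57 on the higher side and Mrps25, Mrps22 and Mrpl41 on the lower side came next, with adjusted p from 0.879 to 0.975 in edgeR.

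The genotype effects of the plate sets were compared by their difference within edgeR. No member passed, and none of the 6690 genes did (0.0%), while 6 members had an unadjusted p under 0.05 in edgeR. DESeq2 gave 0 members at an adjusted p under 0.05, and 1 higher and 1 lower at an unadjusted p under 0.05. Mrpl45 had the smallest p among members, with a log2 difference of effects of 2.17 ± 0.54 (SE) and an adjusted p in edgeR of 0.306. Mrpl46 (adjusted p 0.490), Mrpl14 (0.524), Mrpl3 (0.490), Mrpl24 (0.512) and Mrpl39 (0.618) followed in edgeR. A different response of members in the 2 plate sets was thus not detectable at this depth.

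Between plate2 and HSC libraries of wild type mice, single members moved in both directions. Of the 68 members 5 rose and 3 fell in plate2 (edgeR, adjusted p under 0.05), where 9.64% of all genes rose and 8.13% fell. The median log2 fold difference of members was 0.17, against 0.08 over all genes, so that the members as a list stood near the background. Scaling by library size alone lowered the median of all genes by 0.24 and turned that of members to -0.07. Leaving out wild type HSC library 1 gave 0 that rose and 2 that fell, wild type HSC library 2 or wild type plate2 library 1 gave 0 and 1, and Mof -/+ plate2 library 2, which shares in the estimate of the spread, gave 3 and 2.

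Mrps16, a small subunit protein, gave 1 transcript in the wild type HSC libraries and 48 in the wild type plate2 ones. It stood at 10.1 and 0 CPM in wild type HSC and 47.7 and 30.6 CPM in wild type plate2 libraries. In Mof -/+ mice it stood at 8.19 and 4.97 CPM in HSC and 55.5 and 82.6 CPM in plate2 libraries. All 4 plate2 values lay above all 4 HSC values. From counts, the ratio was 8.38 in wild type (95% exact binomial interval 1.43 to 338) and 10.3 in Mof -/+ libraries (3.42 to 51), intervals that cover counting error only. The adjusted p in edgeR was 0.0364 in wild type and 0.00103 in Mof -/+ libraries. In wild type the call ended under 7 of 17 alternatives, in Mof -/+ libraries under none of 17. Mrps16 lies at chr14:20389304-20393634 on the minus strand of GRCm38.

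The other 4 that rose in wild type gave 0 transcripts in the kept wells of both wild type HSC libraries. Neither these 4 nor Mrps16 would have passed the filter on low counts by their HSC levels. High plate2 levels brought them into the test, so their rises are no separate support for a rise of members. Mrps28, of the small subunit, stood at 51.8 and 23.6 CPM in wild type plate2 libraries, at least 2.79-fold higher (adjusted p in edgeR 0.0288). Mrpl3 stood at 42.2 and 35.3 CPM, at least 2.68-fold higher (adjusted p in edgeR 0.0122). Mrps18c stood at 38.1 and 21.2 CPM, at least 2.15-fold higher (adjusted p in edgeR 0.0228), and Mrpl24 at 35.4 and 18.8 CPM, at least 1.98-fold higher (adjusted p in edgeR 0.0280). Each of these calls ended when wells needed 2000 transcripts or when either wild type HSC library or wild type plate2 library 1 was left out. That of Mrpl3 also ended when all barcodes were used, and those of Mrps18c and Mrpl24 with DESeq2. The 3′ end of Mrpl24 overlaps that of Rrnad1 on the other strand.

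Mrpl45 fell in wild type plate2 libraries. Its 191.4 and 155.3 CPM in wild type HSC libraries faced 46.3 and 30.6 CPM in wild type plate2 libraries, while Mof -/+ mice had 65.5 and 54.7 CPM in HSC and 69.8 and 61.9 CPM in plate2 libraries. The 2 wild type HSC libraries were thus above the other 6. The log2 fold difference was -1.85 ± 0.39 (SE), with an adjusted p in edgeR of 0.00292, and the call ended in 1 of 17 alternatives, without erythroid-marked wells (log2 fold difference -1.63, adjusted p in edgeR 0.0605). Mrpl45 lies at chr11:97315716-97329920 on the plus strand of GRCm38.

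Mrps27, an RNA-binding protein of the small subunit, fell with a log2 fold difference of -1.79 ± 0.51 (SE, adjusted p in edgeR 0.0204). It stood at 50.4 and 242.7 CPM in wild type HSC libraries and 40.9 and 28.3 CPM in wild type plate2 libraries. Wild type HSC library 2 set this value: without it the log2 fold difference was -0.18 (adjusted p in edgeR 0.906). In Mof -/+ mice it stood at 90.1 and 64.6 CPM in HSC and 47.6 and 48.7 CPM in plate2 libraries, with an adjusted p in edgeR of 0.472.

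Mrpl14, of the large subunit, stood at 130.9 and 145.6 CPM in wild type HSC and 44.9 and 49.5 CPM in wild type plate2 libraries. Its log2 fold difference was -1.30 ± 0.40 (SE, adjusted p in edgeR 0.0308), a call that ended under 10 of 17 alternatives although the libraries did not overlap. In Mof -/+ mice its 94.2 and 64.6 CPM in HSC overlapped with 58.7 and 72.3 CPM in plate2 libraries.

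**Figure D3:**
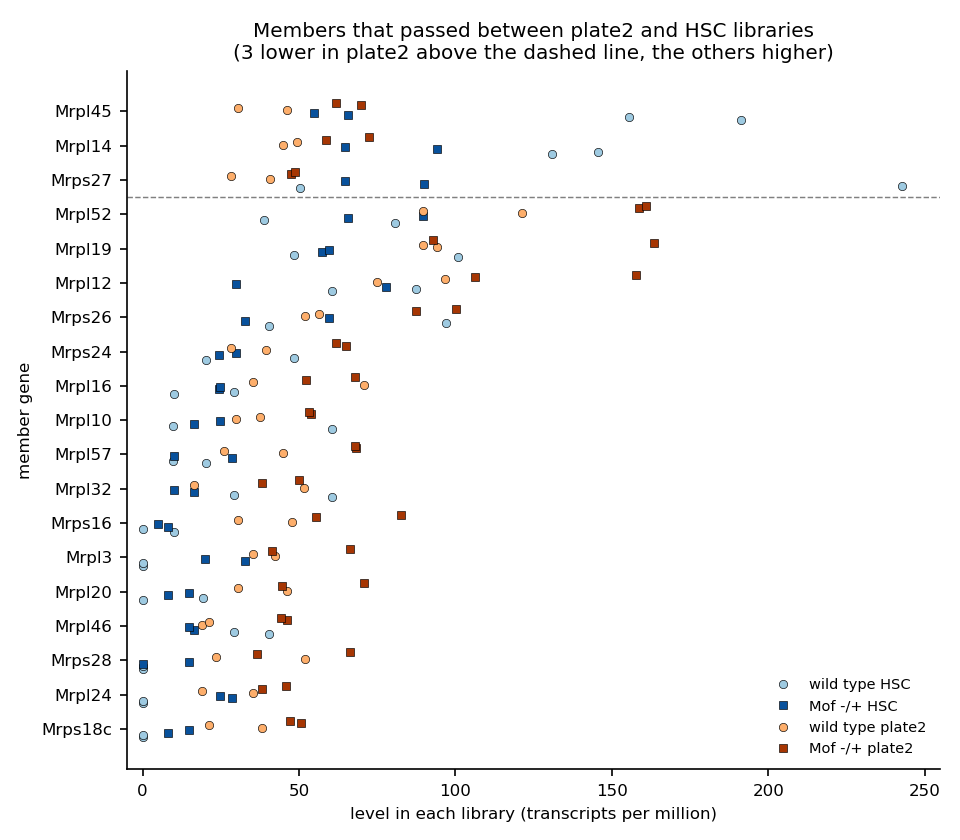
Level in CPM (horizontal axis) in each of the 8 libraries for the 19 members that passed between plate2 and HSC libraries in either genotype, 1 row a gene and 1 point a library. The 3 members that fell in wild type, Mrpl45, Mrpl14 and Mrps27, stand above the dashed line, and the 16 members that rose stand below it.

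In Mof -/+ mice 14 of the 68 members rose from HSC to plate2 libraries (20.6%) and none fell (edgeR, adjusted p under 0.05), where 11.9% of all genes rose and 10.3% fell. At an unadjusted p under 0.05, 21 members were higher and none lower in edgeR, and 15 were higher and none lower in DESeq2. The difference was above 0 for 60 members (88.2%), against 52.1% of all genes, and its median was 0.71, against 0.04 over all genes. Scaling by library size alone lowered the median of all genes by 0.20 and gave members 0.51. The comparisons in the 2 genotypes share no library, and 3 members rose in both: Mrps16, Mrps18c and Mrps28, which are 3 of the 5 of wild type and 3 of the 14 of Mof -/+ mice. The share of members that rose did not stay above that of all genes. It was 2 of 68 (2.94%) against 6.07% of all genes in DESeq2 at an adjusted p under 0.05, and 3 of 52 (5.77%) against 8.73% without erythroid-marked wells. Leaving out Mof -/+ HSC library 1 gave 4 of 74 (5.41%) against 6.65%, and leaving out Mof -/+ plate2 library 2 gave 2 of 62 (3.23%) against 4.31%. Without Mof -/+ HSC library 2 it was 7 of 75 (9.33%) against 5.46%, and without Mof -/+ plate2 library 1 it was 4 of 64 (6.25%) against 5.61%.

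Mrpl20, a large subunit protein whose bacterial relative takes part in ribosome assembly, stood at 8.19 and 14.9 CPM in Mof -/+ HSC and 44.4 and 70.8 CPM in Mof -/+ plate2 libraries. Its log2 fold difference was 2.52 ± 0.64 (SE, adjusted p in edgeR 0.00805). In wild type it stood at 0 and 19.4 CPM in HSC and 46.3 and 30.6 CPM in plate2 libraries, so that all plate2 values lay above all HSC values. Leaving out Mof -/+ HSC library 1 or Mof -/+ plate2 library 2 ended the call, with adjusted p of 0.0797 and 0.126 in edgeR.

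Mrps28 stood at 0 and 14.9 CPM in Mof -/+ HSC and 36.5 and 66.4 CPM in Mof -/+ plate2 libraries, a ratio of counts of 7.71 (exact binomial interval 2.53 to 38.3, adjusted p in edgeR 0.0117). Mrps18c stood at 8.19 and 14.9 CPM against 50.8 and 47.2 CPM, with a log2 fold difference of 2.28 ± 0.63 (SE, adjusted p in edgeR 0.0142). Both were low in every HSC library and higher in every plate2 library. Among others, Mrps28, Mrps18c, Mrps16, Mrpl20 and Mrpl57 passed the filter on low counts only through plate2 levels. Their rises in Mof -/+ mice carry the same limit as those in wild type.

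Mrpl57, without a bacterial relative, stood at 28.7 and 9.94 CPM in Mof -/+ HSC and 68.2 and 67.8 CPM in Mof -/+ plate2 libraries (log2 fold difference 1.94 ± 0.52, adjusted p in edgeR 0.0112). Mrpl12, a stalk protein that also binds the mitochondrial RNA polymerase, stood at 77.8 and 29.8 CPM against 106.3 and 157.8 CPM. Its log2 fold difference was 1.45 ± 0.40 (SE, adjusted p in edgeR 0.0138). Mrpl10, which anchors Mrpl12 to the ribosome, stood at 16.4 and 24.9 CPM against 53.9 and 53.1 CPM (adjusted p in edgeR 0.0426). Antisense models overlap the 3′ ends of both stalk genes, Gm16755 that of Mrpl12 and Gm11574 that of Mrpl10.

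Mrpl52 stood at 65.5 and 89.5 CPM in Mof -/+ HSC and 158.7 and 160.8 CPM in Mof -/+ plate2 libraries, with a log2 fold difference of 1.25 ± 0.35 (SE, adjusted p in edgeR 0.0137). Without erythroid-marked wells this was 0.695 (adjusted p in edgeR 0.307). The remaining members that rose were Mrpl19, Mrpl46, Mrps26, Mrps24, Mrpl16 and Mrpl32, with log2 fold differences from 1.24 to 1.88 and adjusted p from 0.0188 to 0.0458 in edgeR. On the lower side Mrps23 (-0.69, adjusted p 0.221), Mrpl37 (-0.60, adjusted p 0.315) and Mrps27 (-0.50, adjusted p 0.472) had the smallest p in edgeR. Mrps23 lay lower in all 4 plate2 libraries (25.9 to 45.7 CPM) than in all 4 HSC libraries (59.7 to 110.8 CPM).

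Over all 8 libraries the plate2 values lay entirely above the HSC values for 8 members (11.8%), where 12.1% of all genes did so, and entirely below them for 3 (4.41%), where 18.3% of all genes did so. The 8 were Mrpl3, Mrpl9, Mrpl16, Mrpl20, Mrps16, Mrps18c, Mrps28 and Mrps30, and the 3 were Mrps10, Mrps23 and Mrps27.

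By origin, members with a bacterial relative gave 5 that rose and 1 that fell of 41 tested in wild type (median 0.43). Those without gave 0 and 2 of 27 (median -0.10). In Mof -/+ mice the counts were 10 and 0 of 41 (median 0.83) and 4 and 0 of 27 (median 0.56). Over all genes 9.64% rose and 8.13% fell in wild type, and 11.9% rose and 10.3% fell in Mof -/+ mice. The difference between these classes of members was not tested.

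Of the rest of the mitochondrial translation apparatus, fewer genes could be tested. Of 9 tested assembly and rRNA modification factors 1 rose and 1 fell in wild type, and 1 rose and none fell in Mof -/+ mice. Of 9 translation factors 1 rose and 2 fell in wild type, and none passed in Mof -/+ mice. Of 8 mitochondrial aminoacyl-tRNA synthetases 1 rose in wild type and 2 rose in Mof -/+ mice, with Lars2, the leucine enzyme, in both (log2 fold difference 2.19 ± 0.60, adjusted p 0.0158, and 1.44 ± 0.45, adjusted p 0.0259 in edgeR). Chchd1, a small subunit protein without an Mrp name, rose in both genotypes (2.02 ± 0.49, adjusted p 0.00601 in edgeR in Mof -/+ mice). Of cytosolic ribosomal protein genes, 35 of 73 rose and 5 fell in wild type, and 36 rose and 1 fell in Mof -/+ mice. Of nuclear respiratory chain genes, 18 of 76 rose and 4 fell in wild type, and 23 rose and none fell in Mof -/+ mice. Transcripts of the protein genes of mitochondrial DNA summed to 65840 to 81720 CPM in HSC and 45470 to 51920 CPM in plate2 libraries, without overlap. In the fits these 13 genes did not move as one. In wild type 4 rose and 3 fell (median log2 fold difference 0.52), and in Mof -/+ mice 2 rose and 3 fell (median -0.19).

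Within libraries, wells were divided by their share of transcripts from 12 early erythroid genes, none of them an Mrp gene. Wells with at least 0.5% are called erythroid-marked, a range of a score and not a cell type. There were 15, 10, 14 and 11 such wells in the 4 plate2 libraries and 2, 3, 4 and 0 in the 4 HSC libraries. Most transcripts of a library lay on its main set of barcodes. The rest held 4.11% and 5.37% in the wild type plate2 libraries. Kept barcodes outside the main set numbered 11, 4, 3 and 0 in the plate2 libraries. Main-set barcodes alone gave 8, 6, 14 and 11 erythroid-marked wells. In wild type these held 208077 of 216173 and 111881 of 116758 transcripts. Whether the barcodes outside were sorted wells was not tested. Of the plate2 wells, 67 had a share between 0.25% and 1%, near the dividing value.

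Summed over wells, Mrp genes took a larger share of transcripts in erythroid-marked wells in each library that had them. The summed level was 4633 against 3279 CPM in other wells of wild type plate2 library 1, 5330 against 2266 CPM in library 2, 5236 against 3608 CPM in Mof -/+ plate2 library 1, and 6290 against 3960 CPM in library 2. The erythroid-marked wells of the HSC libraries, far fewer, gave 6275 against 2911 and 5962 against 3088 CPM in wild type and 6141 against 3164 CPM in Mof -/+ library 1. In wild type HSC library 1, 1 well held 13698 of the 15144 transcripts of erythroid-marked wells. In wild type HSC library 2, 1 well held 18028 of 30201. These single wells gave 25.6% and 26.4% of all Mrp transcripts of their libraries. All 7 values of erythroid-marked wells lay above all 8 values of other wells. In plate2 libraries the ratio was 1.41 to 2.35, with a mean log2 ratio of 0.73 ± 0.34 (SD, n = 4 libraries). Single wells of the 2 kinds overlapped. In wild type plate2 library 1 the median erythroid-marked well held 0.462% Mrp transcripts. A well of 38400 transcripts there, with 0.0183% early erythroid, held 0.511%. Another of 18700 transcripts, with 0.0268% early erythroid, held 0.0214%. A larger Mrp share was thus not particular to erythroid-marked wells.

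**Figure D4:**
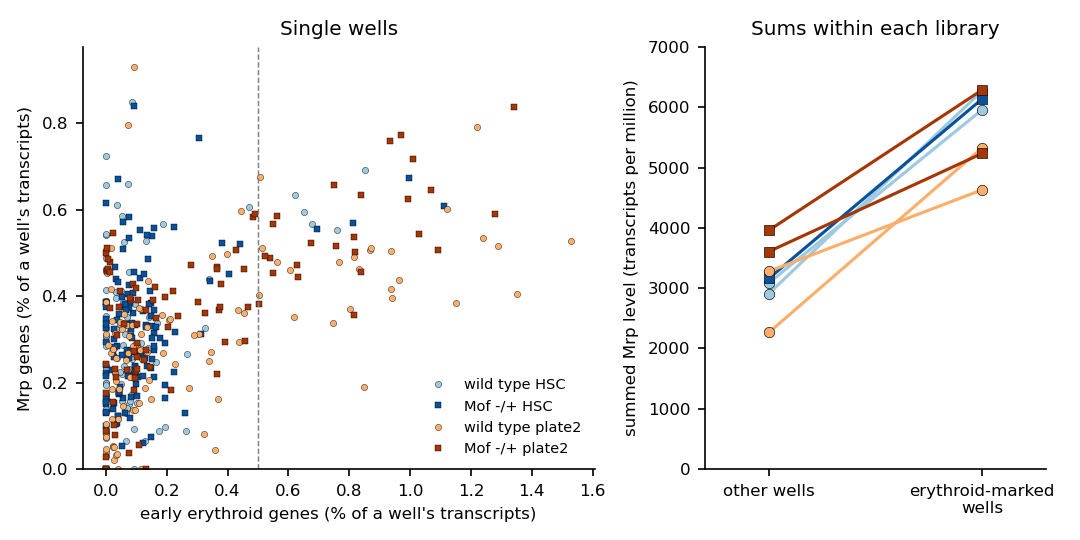
Left, share of a well's transcripts on Mrp genes (vertical axis, percent) against its share on early erythroid genes (horizontal axis, percent), 1 point a kept well and the dashed line at 0.5%. Right, summed Mrp level in CPM in other and in erythroid-marked wells, 1 line a library: all 7 lines rise, from 2266 to 3960 CPM on the left to 4633 to 6290 CPM on the right.

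Over all kept wells, the median well of wild type plate2 libraries held 6942 and 2357 transcripts when erythroid-marked and 8761 and 8635 otherwise. That of Mof -/+ plate2 libraries held 24860 and 23370 when erythroid-marked and 7897 and 11680 otherwise. With wells of at least 2000 transcripts, erythroid-marked wells were the deeper ones in 4 of 4 libraries. Their median well held 25970 and 24760 transcripts in wild type and 26620 and 24260 in Mof -/+ libraries. That of other wells held 9341, 8826, 9664 and 12400. With these wells the ratio of Mrp sums was 1.42 to 2.37. With main-set barcodes alone the ratio was 1.415 to 2.372. The median erythroid-marked well of wild type plate2 libraries then held 25970 and 24000 transcripts. With each well thinned to 1000 transcripts the ratio was 1.42 to 2.61 and again above 1 in 4 of 4 libraries. With wells divided at 0.25% it was 1.39 to 2.05, and at 1%, where fewer wells are marked, 1.16 to 2.14. Across the wells of a library, Spearman's rho of the Mrp share with the early erythroid share was 0.55 to 0.67 in plate2 and 0.07 to 0.40 in HSC libraries. Wells of a library share its preparation, and these values are a description.

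Of the 63 members tested, 12 were higher in erythroid-marked plate2 wells and none lower (edgeR with library as a term, adjusted p under 0.05), where 12.7% of all genes were higher and 15.8% lower. The difference was above 0 for 55 members (87.3%), against 50.6% of all genes, with a median log2 fold difference of 0.44, against 0.01. Scaling by library size alone raised the median of all genes by 0.15 and gave 20 members higher (31.7%, against 18.8% of all genes) and none lower. At an unadjusted p under 0.05, 21 members were higher and 1 lower in edgeR, and 11 were higher and none lower in DESeq2. At an adjusted p under 0.05 DESeq2 called 4 of 63 higher (6.35%, against 4.57% of all genes) and none lower. With wells divided at 0.25%, 12 of 64 members were higher (18.8%, against 15.7% of all genes) and 1 was lower, Mrps33.

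Mrpl18 stood at 217.6, 274.4, 202.6 and 267.0 CPM in erythroid-marked wells of the 2 wild type and then the 2 Mof -/+ plate2 libraries, and at 98.4, 94.2, 105.04 and 110.6 CPM in other wells. The 4 values of each kind did not overlap, and the log2 fold difference was 1.0 ± 0.18 (SE, adjusted p in edgeR 0.000601). Mrpl52 stood at 180.6, 179.98, 215.2 and 270.8 CPM against 96.5, 55.2, 101.8 and 91.4 CPM (1.07 ± 0.20, adjusted p in edgeR 0.000919).

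Mrpl12, of the stalk, stood at 138.9, 240.1, 129.7 and 247.9 CPM in erythroid-marked wells and 48.2, 42.2, 82.7 and 100.98 CPM in other wells (1.21 ± 0.24, adjusted p in edgeR 0.00156). Mrps36 stood at 111.1, 179.95, 91.8 and 125.8 CPM against 50.2, 39, 41.4 and 43.3 CPM (1.26 ± 0.26, adjusted p in edgeR 0.00172). The calls of Mrpl18, Mrpl52, Mrpl12 and Mrps36 held in 12 of 12 alternatives, with adjusted p up to 0.0221 in edgeR or DESeq2.

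The other 8 that were higher were Mrpl28, Mrpl20, Mrpl51, Mrps28, Mrpl35, Mrpl34, Mrpl32 and Mrpl15, with log2 fold differences from 0.75 to 1.25 and adjusted p from 0.00817 to 0.0353 in edgeR. Each lay higher in erythroid-marked wells in 4 of 4 libraries. DESeq2 did not call any of these 8, and without Mof -/+ plate2 library 2 only Mrpl28 of the 8 passed, so that 5 of 62 members did in all (8.06%, against 6.30% of all genes). By name class, 10 of 40 Mrpl and 2 of 23 Mrps members were higher, where 12.7% of all genes were. The difference between the name classes was not tested.

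**Figure D5:**
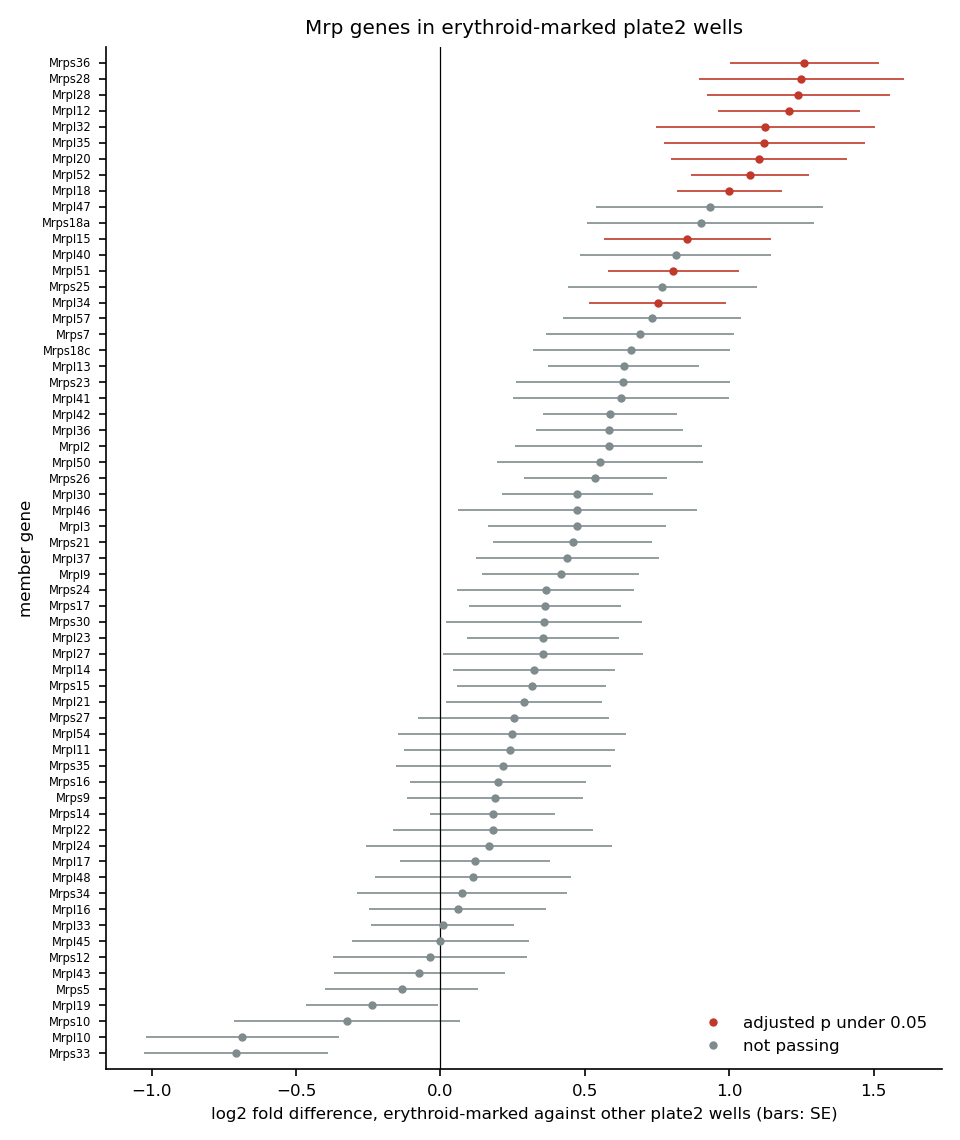
Log2 fold difference between erythroid-marked and other plate2 wells (horizontal axis) for the 63 members tested, 1 row a gene, with bars of 1 SE. Red points mark the 12 members with an adjusted p under 0.05, all on the right; 55 of 63 points lie above 0.

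Higher levels in erythroid-marked wells of 4 of 4 libraries were found for 34 of the 63 members (54%), where 30.9% of all genes did so. Lower levels in 4 of 4 were found for Mrpl10 alone (17.3% of all genes). Mrpl10 stood at 23.1, 17.1, 47.5 and 45.7 CPM in erythroid-marked and 32.8, 45.5, 60.5 and 57.7 CPM in other wells, a log2 fold difference of -0.69 ± 0.33 (SE, adjusted p in edgeR 0.138). Its stalk partner Mrpl12 was higher in 4 of 4 libraries. Mrps33 (-0.71, adjusted p 0.109) and Mrpl19 (-0.24, adjusted p 0.472) were the other members of smallest p on the lower side in edgeR.

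Among members set apart for their roles, Mrps12, at the decoding centre, stood at 46.3, 17.1, 60.1 and 61 CPM in erythroid-marked and 42.5, 39, 38.2 and 52.9 CPM in other wells. Mrpl44, an RNase III-like protein, stood at 23.1, 17.1, 25.3 and 41.9 CPM against 27, 9.74, 44.5 and 31.3 CPM. The 2 kinds of well overlapped for both. Mrps18a was higher in 4 of 4 libraries (34.3 to 42.8 CPM against 9.74 to 22.3 CPM, without overlap), with a log2 fold difference of 0.90 ± 0.39 (SE, adjusted p in edgeR 0.0992). Mrps18c was higher in 3 of 4 (60.2, 42.8, 50.6 and 72.4 CPM against 28.9, 12.99, 50.9 and 31.3 CPM), with 0.66 ± 0.34 (SE, adjusted p in edgeR 0.163). Mrpl45, Mrps16 and Mrps27, which moved between plate sets, were higher in 2, 2 and 3 of 4 libraries. Of the members that rose from HSC to plate2 libraries in Mof -/+ mice, 5 of 14 were also higher in erythroid-marked wells (5 of those 12): Mrpl12, Mrpl20, Mrpl32, Mrpl52 and Mrps28. Both comparisons use the Mof -/+ plate2 libraries.

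Beside the members, 42 of 75 nuclear respiratory chain genes were higher in erythroid-marked wells and none lower, with a median of 0.62. Among them Cox6a1, a cytochrome c oxidase subunit, had the smallest p (1.19 ± 0.16, adjusted p in edgeR 2.7e-05). Of 73 cytosolic ribosomal protein genes 4 were higher and none lower (median 0.10), and of 13 protein genes of mitochondrial DNA 1 was higher, mt-Nd1 of complex I (0.60 ± 0.11, adjusted p in edgeR 0.000503). The Mrp sum was 1.41 to 2.35 times, the respiratory chain sum 1.56 to 2.43 times and the cytosolic ribosomal protein sum 1.06 to 1.45 times that of other wells. Gfm1, an elongation factor of mitochondrial translation, was higher (1.46 ± 0.41, adjusted p in edgeR 0.0145), as were C1qbp and Noa1 among assembly factors. Proliferation markers were higher for 3 of 6 genes and none lower (median 1.23), and all 6 tested stem cell markers were lower, and their part in the Mrp values was not tested.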

How the data were processed

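The deposited values are expected counts, not scaled for depth. Each one fits a whole number of molecular identifiers out of 4096, corrected for identifiers used more than once. BWA 0.6.2-r126 is named per the submitters' processing notes. The sources used here name no annotation, counting tool or strand use. The 70 spike-in rows stayed out. Every row names a gene or a spike-in.

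The members and all gene lists were chosen with earlier results of these data known. Counts of kept barcodes (at least 1000 transcripts, no doublet caller, since cells were sorted into wells) were summed per library, rounded, and tested with edgeR 4.0.16 (R 4.3.3; TMM, filterByExpr, quasi-likelihood, two-sided) in a one-way layout of 4 groups, or with plate set or library as a term. Adjusted p are Benjamini-Hochberg over all genes tested; SE are of the fitted log2 fold difference, and CPM carry no TMM factor. The test of erythroid-marked wells used 4773 genes beside the 12 markers. Between libraries of a group, counts differed beyond sampling noise (chi-square per degree of freedom 2.21 to 4.47). Bounds set a group at 0 to 3 counts over the group.

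Text names members that passed, the 8 of highest mean CPM, 3 of smallest p per side and comparison, and Mrps18a, Mrps18b, Mrps18c, Mrpl10, Mrpl12, Mrps12, Mrpl44 and Mrps36. Members found apart between all libraries, and Mrps30, were named after their values were seen. The fits were tested on simulated data. Coordinates are from GENCODE vM21 (GRCm38), promoters from RefSeq (GRCm38.p6). Alternatives were DESeq2 1.42.0, other scalings, filters and barcode rules, thinning (seed 1), and leaving out each library. Some were chosen after seeing the data. These were library size alone, leaving out erythroid-marked or mature neutrophil wells, and main-set barcodes for the well comparison. Other tools were numpy, pandas, scipy and matplotlib.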

Additional observations from a re-analysis of the deposited data

How the results depend on the processing

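Members called between plate2 and HSC libraries of wild type numbered 8 (5 higher, 3 lower), 4 with DESeq2 (2 and 2), 1 with at least 2000 transcripts per well, 13 with all barcodes (9 and 4), 2 without erythroid-marked wells and 1 to 9 on leaving out 1 library. In Mof -/+ mice they numbered 14, 8 with library size alone, 2 with DESeq2, 3 without erythroid-marked wells and 2 to 15 on leaving out 1 library; the share of members that rose was then under that of all genes with DESeq2 (2.94% against 6.07%), without erythroid-marked wells (5.77% against 8.73%), without Mof -/+ HSC library 1 and without Mof -/+ plate2 library 2. Between erythroid-marked and other wells they numbered 12, 13 with wells divided at 0.25% (12 higher, 1 lower), 20 with library size alone, 4 with DESeq2 and 5 to 11 on leaving out 1 library. For the genotype effect in HSC libraries, 1 member was called (lower) with at least 2000 transcripts; the other genotype comparisons gave 0 under each alternative run. Library size alone split all genes called into 458 higher and 797 lower (645 and 544 with TMM) in wild type, 556 and 899 (794 and 687) in Mof -/+ mice and 911 and 614 (617 and 754) between wells, and members into 4 and 4 in wild type. In the wild type comparison, the share of members that rose was 7.35% against 9.64% of all genes. It was 2.94% against 4.99% with DESeq2 and 12.5% against 13.7% with all barcodes. With at least 2000 transcripts it was 0% against 5.23%, and without erythroid-marked wells 1.92% against 9.28%. Between wells with library size alone, 31.7% of members were higher, against 18.8% of all genes. In the HSC genotype comparison with at least 2000 transcripts, 8 of 6639 genes were lower.

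The log2 ratio of Mrp sums between genotypes in HSC libraries was -0.10. It was -0.33 with at least 2000 transcripts, 0.00584 after thinning, 0.0482 without erythroid-marked wells and -0.27 to 0.0676 on leaving out 1 library. Between plate2 and HSC libraries it was -0.12 in wild type, -0.36 with at least 2000 transcripts, 0.14 scaled by TMM and -0.24 to 0.00334 on leaving out 1 library, and in Mof -/+ mice 0.44, 0.16 after thinning, 0.29 without erythroid-marked wells, 0.635 scaled by TMM and 0.27 to 0.61 on leaving out 1 library. The median well share, averaged over the 2 libraries of a group, went in plate2 libraries from 0.305% to 0.25% in wild type and from 0.396% to 0.3% in Mof -/+ mice after thinning, where a median is a whole number of transcripts; the mean well held 3.25 and 2.44 Mrp transcripts per 1000 in wild type and 3.56 and 3.80 in Mof -/+ libraries. The cause of these changes was not tested.

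No pairing of the HSC libraries by replicate number was seen (correlation of deviations -0.10 for equal numbers). With 2 libraries a group this is a single value, which cannot exclude pairing. With the replicate block 0 members were called in each genotype comparison fitted. The plate2 titles share no number. After thinning no member passed the filter on low counts, and at a dividing value of 1% each library had fewer than 5 erythroid-marked wells, so neither could be fitted. Of the single calls under alternatives that still tested the member, 364 of 508 held, the others did not pass and none turned. Alternatives in which the filter on low counts dropped the member are not among the 508. Wild type HSC libraries hold 340 and 405 Mrp transcripts, of which 1 well in each gave 25.6% and 26.4%. This limits every comparison with them.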
